A study of Homo sapiens with 24 samples.

Results

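The 46 genes described here encode the machinery that copies DNA and the switch that starts it: the proteins that license replication origins, the replicative helicase, the sliding clamp and its loader, the polymerases, the enzymes that finish the lagging strand, the enzymes that make deoxynucleotides, and the cyclins E with E2F1. They were chosen as rows of the deposited expression table whose Ensembl identifier carries a listed symbol, and all 46 were found among its 60675 rows, of which 19586 are annotated as protein-coding. RNA came from SW1783, an established human astrocytoma cell line, after 24 h with an extract of Schisandrae Fructus (SF), the fruit of Schisandra, or with the vehicle. The water extract, WESF, was given at a low (20 µg/mL), a medium (100 µg/mL) and a high dose (500 µg/mL) in batch A, and the ethanol extract, EESF, at 12.4, 62 and 310 µg/mL in batch B. Each batch had its own vehicle group, with PBS and 0.1% DMSO, and each of the 8 groups held 3 libraries, 24 in all. WESF libraries are labelled batch A alone and EESF libraries batch B alone, so extract and batch cannot be told apart. The doses of the extracts also differ in mass. Per the study's methods, the high dose of EESF had been set at a mildly cytotoxic level and the high dose of WESF had shown no toxicity. Because the labels do not say whether the libraries of a group came from separate cultures, the p-values measure the spread between these libraries, which may be technical.

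In proliferating cells, the origin recognition complex (ORC) with CDC6 and CDT1 loads the ring of MCM2 to MCM7 onto DNA in G1, and at the start of S phase CDC45 and the GINS complex turn that ring into an active helicase. Primase and polymerase alpha then start each strand, the loader RFC places the clamp PCNA, and polymerases epsilon and delta extend the strands. Many of these genes are known targets of the E2F family, which cyclin E and its kinase release from the retinoblastoma proteins, and proliferating tumor lines express them at substantial levels.

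Gene levels were measured by RNA-seq as RSEM expected counts, which are estimated read counts per gene. Library totals lay between 18727797 and 32567395 expected counts. Values of single libraries are given below as CPM, normalised read counts on a common library size, after TMM scaling over all 24 libraries, and fold changes come from edgeR's quasi-likelihood test of the libraries compared, with Benjamini-Hochberg adjustment over all genes tested. Genes are said to have risen or fallen where the adjusted p was under 0.05, and DEGs were those that also moved beyond 1.5-fold (0.585 on the log2 scale). All 46 members passed the filter on low counts in every comparison, with the lowest level, 6.95 CPM, for GINS3 in a high-dose WESF library. The label was checked against markers of astrocytes. GFAP, S100B, AQP4, ALDH1L1 and FABP7, which define mature or radial astrocytes, were at or near 0 in all groups, with means of at most 0.289 CPM. SLC1A2, a glutamate transporter of astrocytes, was also low (0.401 CPM in vehicle A). Other genes of the list that astrocytes express were present, with 31.8 CPM of the glutamate transporter SLC1A3, 61.2 CPM of GLUL, glutamine synthetase, and 81.7 CPM of SOX9 in vehicle A. NES stood at 7.29 CPM, and the highest levels were those of VIM (4821 CPM) and CD44 (2836 CPM).

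At the high doses, most of the genes fell under either extract, by amounts that were small for most and large for a few. With 500 µg/mL WESF, 31 of the 46 fell, 5 rose and 10 were not called, where 34.6% of all 13129 genes tested fell and 34.3% rose. With 310 µg/mL EESF, 29 fell, 3 rose and 14 were not called, where 28.7% of 13092 genes fell and 29.3% rose. The number that rose with EESF moved by over 1.5 times under some alternative settings, given in the last section. The median log2 fold change of the 46 genes was -0.27 with WESF and -0.23 with EESF, beside medians of 0.00 and 0.01 over all genes tested. Beyond 1.5-fold, 8 fell and 0 rose with WESF (13% and 11.1% of all genes tested), and 6 fell and 0 rose with EESF (9.17% and 8.21%). The largest falls were those of MCM3, POLA1, TYMS and CCNE2. Added together, the 46 genes made up 2675 to 2751 CPM in the vehicle A libraries and 2181 to 2258 CPM in the high-dose WESF libraries. The corresponding sums were 2650 to 2730 CPM in vehicle B and 2259 to 2354 CPM with high-dose EESF. All libraries of the other doses lay between 2633 and 2729 CPM, so only the 2 high-dose groups stood below the vehicles, without overlap. These are bulk RNA samples, in which fewer cells in S phase and less RNA of these genes per cell cannot be told apart.

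**Figure D1:**
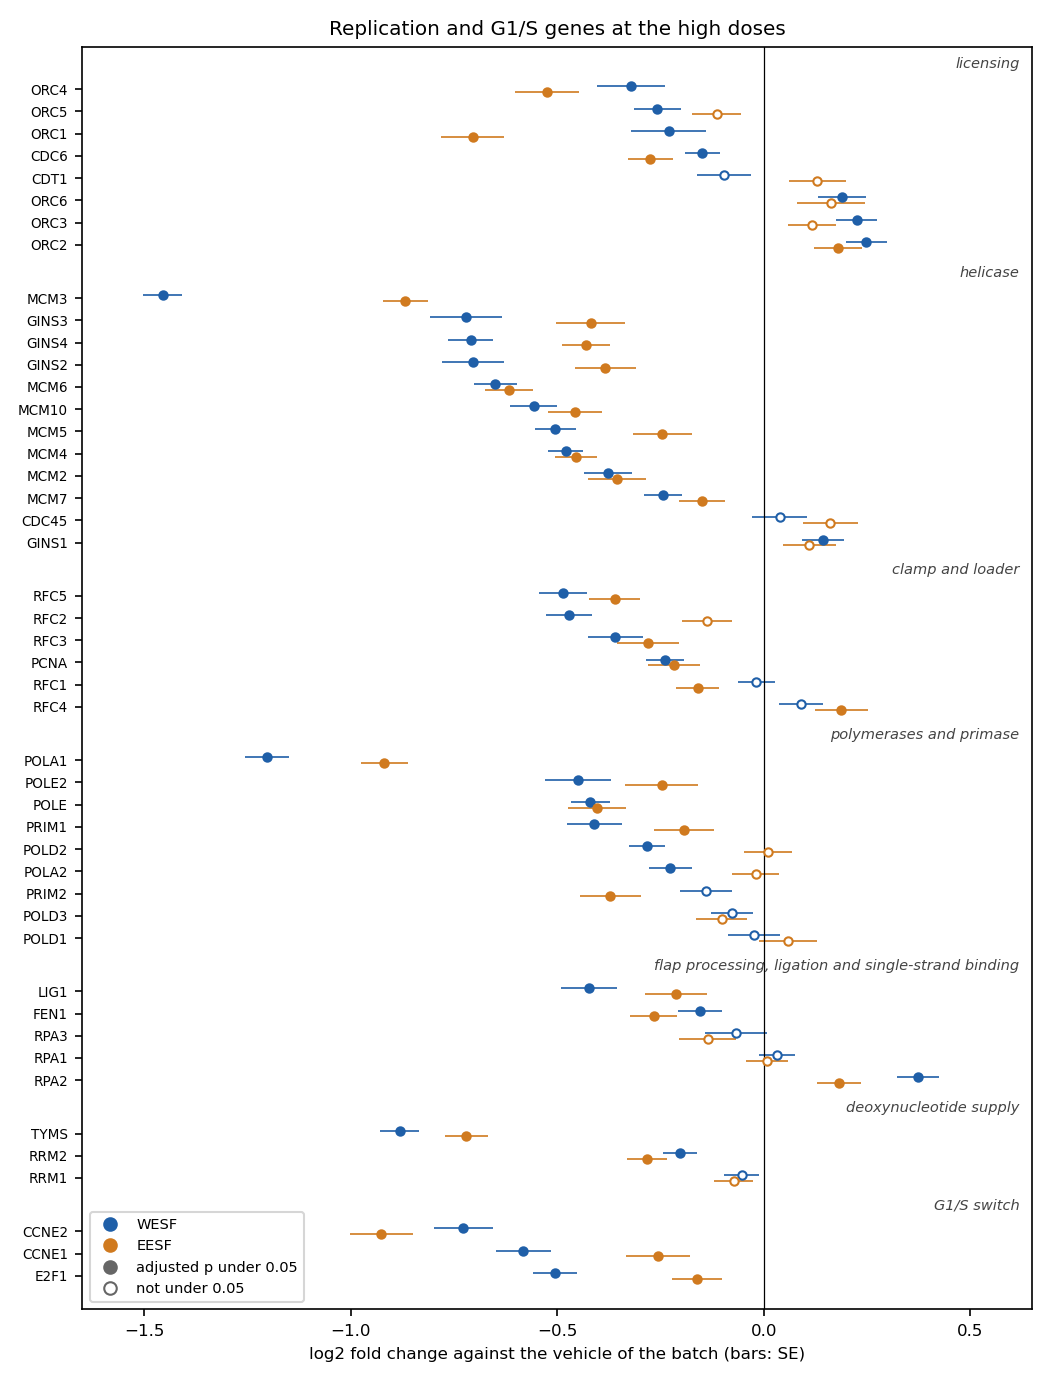
Log2 fold change (x axis) of each of the 46 genes, ordered by role, for 500 µg/mL WESF relative to vehicle A (blue) and for 310 µg/mL EESF relative to vehicle B (orange), with 3 libraries per group; bars are standard errors and filled points passed edgeR's test (adjusted p under 0.05). Most points lie left of 0, with MCM3 at -1.46 and POLA1 at -1.20 farthest out for WESF, while RPA2, ORC2 and ORC3 lie to the right of 0.

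Promoter sequences are shown for 2 helicase and 2 polymerase genes. MCM3 and POLA1 fell furthest in these roles under both extracts. CDC45 was not called at either high dose, and POLD2, which fell by 0.28 with WESF, was not called with EESF (0.01). The runs below are the plus strand of transcription from RefSeq (GRCh38.p14), from 250 bases before to 50 bases after the RefSeq start. The gene start in GENCODE 44 lies inside this window for MCM3 and POLA1, but upstream of it for CDC45 (19479457) and POLD2 (44124358), where the window lies within the gene as annotated there. Capitals mark stretches that match any of the E2F-type letters TTTCCCGC, TTTCGCGC, TTTGCCGC or TTTGGCGC on either strand. The MCM3 run is chr6:52284693-52284992 on the minus strand, and that of POLA1 is chrX:24693668-24693967 on the plus strand. The CDC45 run is chr22:19479670-19479969 on the plus strand, and that of POLD2 is chr7:44123499-44123798 on the minus strand.
MCM3: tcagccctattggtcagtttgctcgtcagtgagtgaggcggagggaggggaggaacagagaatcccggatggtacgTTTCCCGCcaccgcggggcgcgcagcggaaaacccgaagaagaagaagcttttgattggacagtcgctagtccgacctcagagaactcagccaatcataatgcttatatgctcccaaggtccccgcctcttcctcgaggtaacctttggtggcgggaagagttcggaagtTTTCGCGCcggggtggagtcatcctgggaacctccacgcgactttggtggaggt
CDC45: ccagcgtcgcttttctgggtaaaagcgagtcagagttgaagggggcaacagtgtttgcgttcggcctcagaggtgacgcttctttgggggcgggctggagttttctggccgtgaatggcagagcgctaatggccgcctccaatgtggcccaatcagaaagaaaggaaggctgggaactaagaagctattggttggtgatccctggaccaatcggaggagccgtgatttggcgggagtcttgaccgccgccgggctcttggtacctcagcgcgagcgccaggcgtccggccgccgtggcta
POLA1: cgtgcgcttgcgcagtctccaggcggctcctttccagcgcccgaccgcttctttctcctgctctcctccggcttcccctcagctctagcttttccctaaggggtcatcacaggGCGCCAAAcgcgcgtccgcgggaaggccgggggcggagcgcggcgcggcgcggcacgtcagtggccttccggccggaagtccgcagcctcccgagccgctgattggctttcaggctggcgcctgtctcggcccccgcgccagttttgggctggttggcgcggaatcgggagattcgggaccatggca
POLD2: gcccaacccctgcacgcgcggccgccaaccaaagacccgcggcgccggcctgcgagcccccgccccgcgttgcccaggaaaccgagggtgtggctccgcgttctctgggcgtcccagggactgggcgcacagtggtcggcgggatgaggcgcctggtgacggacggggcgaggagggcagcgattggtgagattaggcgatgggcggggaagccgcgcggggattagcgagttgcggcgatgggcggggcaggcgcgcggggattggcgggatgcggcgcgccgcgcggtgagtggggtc
The MCM3 promoter held 2 such stretches and the POLA1 promoter 1, while CDC45 and POLD2 held 0 in this window. Only these exact letters were counted. Near matches, such as tttggcggga in the CDC45 run and ggcgggaa in the MCM3 run, were not, so a count of 0 does not show that E2F sites are absent. RefSeq promoters were matched for 39 of the 46 genes (MCM4, MCM5, GINS4, POLD3, RPA2, RPA3 and CCNE2 were not matched). The E2F-type letters were in 19 of these 39 (48.7%), beside 703 of 15843 coding promoters of the same length (4.44%). The letters CCAAT, bound by NF-Y, were in 23 of 39 (59%) beside 36.4% of all, and TTTGAA, the core of the CHR element of genes that peak in G2 and M phase, in 1 of 39 beside 12.1%, each on either strand and counted once per promoter whether or not matches overlapped. Over all genes tested, 34.6% fell and 34.3% rose with WESF, and 28.7% fell and 29.3% rose with EESF. Of the 19 genes with the E2F-type letters, 16 fell and 2 rose with WESF (median log2 fold change -0.42), and 15 fell and 0 rose with EESF (-0.27). Of the 20 without them, 11 fell and 2 rose with WESF (-0.18), and 10 fell and 2 rose with EESF (-0.15). These counts are descriptions of exact letters in a short window, and genes counted as without them may hold other forms of the site. Binding was not measured.

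Of the 12 helicase genes, 10 fell under each extract, with a role median of -0.53 with WESF and -0.40 with EESF. This count and those of the following roles are to be read beside the shares over all genes, of which 34.6% fell and 34.3% rose with WESF, and 28.7% fell and 29.3% rose with EESF. MCM3 (ENSG00000112118, chromosome 6, 52264014 to 52284881, minus strand, GRCh38), a subunit of the MCM ring, measured 133, 127 and 127 CPM in vehicle A and 45.9, 49.7 and 46.1 CPM with high-dose WESF. In batch B it measured 131, 129 and 124 CPM with the vehicle and 65.8, 72.5 and 72.2 CPM with high-dose EESF. All treated libraries stood far below all vehicle libraries. The fall was 2.74-fold with WESF (log2 -1.46, SE 0.05, edgeR adjusted p = 1.58e-13) and 1.82-fold with EESF (-0.87, SE 0.06, adjusted p = 1.39e-07). The 5 other subunits of the ring fell as well, but by less: MCM6 by 0.65 with WESF and 0.62 with EESF on the log2 scale, MCM4 by 0.48 and 0.45, MCM5 by 0.50 and 0.25, MCM2 by 0.38 and 0.36, and MCM7 by 0.24 and 0.15. MCM6 was therefore a DEG under both extracts, next to MCM3. Of the GINS complex, which joins the ring when origins fire, GINS2, GINS3 and GINS4 fell by 0.70, 0.72 and 0.71 with WESF and by 0.38, 0.42 and 0.43 with EESF. GINS1 rose by 0.14 with WESF (adjusted p = 0.0169), against its 3 partners, although the call was lost without replicate 1 of high-dose WESF (adjusted p = 0.0787) and with DESeq2 (0.0549), and its change with EESF was 0.11 (adjusted p = 0.156), called only without replicate 2 of high-dose EESF (0.16, adjusted p = 0.0492). GINS1 stood at 35.2, 35.8 and 36.0 CPM in vehicle A and at 40.2, 39.8 and 38.2 CPM with high-dose WESF, so the groups did not overlap. MCM10, which helps the helicase to fire, fell by 0.56 with WESF and 0.46 with EESF. CDC45, which joins the ring together with GINS, was not called at either high dose, with changes of 0.04 (SE 0.07, adjusted p = 0.627) and 0.16 (SE 0.07, adjusted p = 0.0549). The WESF value took the opposite sign, -0.04, without replicate 3 of high-dose WESF, and the EESF value was called without replicate 1 of high-dose EESF (0.17, adjusted p = 0.0497) and with counts thinned to the smallest library (0.22, adjusted p = 0.0169).

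**Figure D2:**
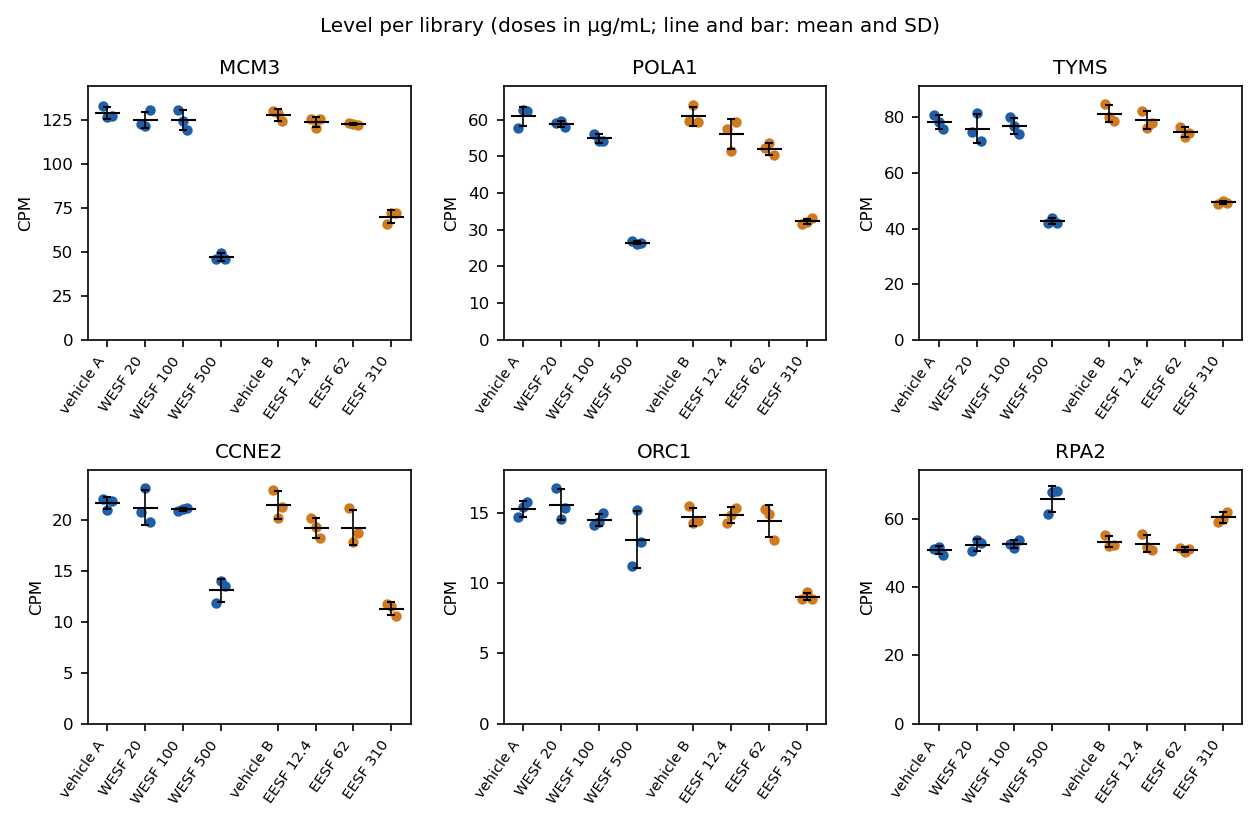
Level of 6 genes in every library (y axis, CPM, starting at 0; a panel for each gene) by group (x axis, dose in µg/mL), with WESF and its vehicle in blue and EESF and its vehicle in orange; points are libraries, and the black line and bar are the mean and SD of 3. For MCM3, POLA1, TYMS and CCNE2 the low- and medium-dose libraries lie near the vehicles and both high-dose groups lie well below; ORC1 is lowest with EESF 310, and RPA2 is high at both high doses.

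Of the 8 licensing genes, 4 fell and 3 rose with WESF, and 3 fell and 1 rose with EESF, counts close to the shares over all genes. The ORC subunits did not move as a unit: ORC4 fell by 0.32 with WESF (SE 0.08, edgeR adjusted p = 0.00219) and under EESF by 0.52 (SE 0.08, adjusted p = 0.000104), and ORC5 fell by 0.26 with WESF. ORC2 rose by 0.25 with WESF (adjusted p = 0.000317) and under EESF by 0.18 (adjusted p = 0.0184), ORC3 rose by 0.23 with WESF (adjusted p = 0.000685), and ORC6 by 0.19 (adjusted p = 0.00791). With EESF the changes of ORC3 and ORC6 were 0.12 (adjusted p = 0.100) and 0.16 (adjusted p = 0.109). ORC3 was called with all 4 groups of the batch in the fit (adjusted p = 0.0476), and ORC6 with thinned counts (0.0472), without replicate 1 of vehicle B (0.0287) or without replicate 1 of high-dose EESF (0.0264). The ORC2 call with EESF was lost without replicate 1 or 2 of vehicle B or replicate 3 of high-dose EESF (adjusted p from 0.0588 to 0.0880), with DESeq2 (0.0543) and with the replicate number as a block (0.0555), and the ORC6 call without replicate 3 of high-dose WESF (adjusted p = 0.0608). ORC1 (ENSG00000085840, chromosome 1, 52372829 to 52404423, minus strand), the ORC subunit whose level is known to vary through the cell cycle, differed most between the extracts among the 8. It measured 15.5, 14.3 and 14.4 CPM with vehicle B and 8.87, 9.33 and 8.87 CPM with high-dose EESF, a fall of 0.70 (SE 0.08, adjusted p = 8.72e-06) with no overlap. In batch A it measured 14.7, 15.4 and 15.7 CPM with the vehicle and 11.2, 15.2 and 12.9 CPM with high-dose WESF, so the groups overlapped. That fall of 0.23 (SE 0.09, adjusted p = 0.0327) was not called without replicate 2 or 3 of vehicle A or replicate 1 or 3 of high-dose WESF (adjusted p from 0.0755 to 0.202), nor with DESeq2 (0.0654) or thinned counts (0.101). The log2 change itself ranged from -0.13 without replicate 1 to -0.34 without replicate 2 of high-dose WESF. CDC6, which helps to load the MCM ring, fell by 0.15 with WESF and 0.27 with EESF. CDT1, its partner in loading, was not called at a high dose, with changes of -0.10 and 0.13 (adjusted p = 0.196 and 0.121).

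Of the genes of the clamp and its loader, 4 of 6 fell under each extract, and with EESF 1 rose. PCNA, the sliding clamp, measured 119.7, 114 and 110.5 CPM in vehicle A and 93.2, 98.6 and 100.2 CPM with high-dose WESF, and fell by 0.24 (edgeR adjusted p = 0.000241). With EESF it fell by 0.22 (adjusted p = 0.0105), from 117, 110.3 and 107 CPM to 87.8, 97.2 and 102 CPM. The loader subunits RFC5 and RFC3 fell under both extracts, by 0.49 and 0.36 with WESF and by 0.36 and 0.28 with EESF. RFC2 fell by 0.47 with WESF (adjusted p = 8.85e-07) and had a change of -0.14 with EESF (adjusted p = 0.073). RFC1, the large subunit, fell by 0.16 with EESF and had a change of -0.02 with WESF (adjusted p = 0.745). RFC4 rose with EESF by 0.19 (SE 0.06, adjusted p = 0.0237), a call lost without replicate 2 or 3 of vehicle B or of high-dose EESF (adjusted p from 0.0593 to 0.128) and with the replicate block (0.0658). Its change of 0.09 with WESF (adjusted p = 0.141) was called only without replicate 1 of vehicle A (0.13, adjusted p = 0.0291).

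Among the polymerases and primase, 6 of 9 genes fell with WESF and 5 with EESF, and 0 rose. POLA1 (ENSG00000101868, chromosome X, 24693873 to 24996986, plus strand), the catalytic subunit of polymerase alpha, stood apart from the rest. It measured 57.8, 62.6 and 62.4 CPM in vehicle A and 26.8, 26.1 and 26.4 CPM with high-dose WESF, and 59.6, 64.0 and 59.4 CPM in vehicle B and 31.7, 32.1 and 33.1 CPM with high-dose EESF. The 3 libraries of each high-dose group were close to each other and far below their vehicles. The fall was 2.30-fold with WESF (log2 -1.20, SE 0.05, edgeR adjusted p = 5.75e-12) and 1.89-fold with EESF (-0.92, SE 0.06, adjusted p = 1.14e-07). The other 3 subunits of the same complex changed less: PRIM1, the catalytic primase subunit, fell by 0.41 and 0.19, PRIM2 fell by 0.37 with EESF and had -0.14 with WESF (adjusted p = 0.062), and POLA2 fell by 0.23 with WESF and had -0.02 with EESF (adjusted p = 0.785). Of the leading-strand polymerase epsilon, POLE fell by 0.42 and 0.40 and its subunit POLE2 by 0.45 and 0.25. Of the 3 listed subunits of polymerase delta, the lagging-strand enzyme, POLD2 was called with WESF, and none with EESF. POLD1, the catalytic subunit, had -0.02 with WESF (SE 0.06, adjusted p = 0.756) and 0.06 with EESF (SE 0.07, adjusted p = 0.493), signs that turned without replicate 1 of vehicle A (0.04), replicate 3 of high-dose WESF (0.02) or replicate 2 of high-dose EESF (-0.02). POLD3 had -0.08 and -0.10 (adjusted p = 0.193 and 0.179). POLD2, another delta subunit, measured 244, 234 and 228 CPM in vehicle A and 189, 197 and 195 CPM with WESF, a fall of 0.28 (adjusted p = 1.79e-05). With EESF it measured 220.2, 250 and 240.1 CPM, overlapping the 242, 235 and 228 CPM of vehicle B (0.01, adjusted p = 0.889).

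Of the 5 genes for flap processing, ligation and single-strand binding, 2 fell and 1 rose under each extract, again close to the shares over all genes. LIG1, the ligase that joins Okazaki fragments, fell by 0.42 with WESF (edgeR adjusted p = 3.12e-05) and under EESF by 0.21 (adjusted p = 0.028). The latter call was lost without replicate 1 of vehicle B or replicate 1 or 3 of high-dose EESF (adjusted p from 0.0627 to 0.0874) and with the replicate block (0.0601). FEN1, the flap nuclease, fell by 0.15 and 0.27, and its call with WESF was lost without replicate 1 of vehicle A or of high-dose WESF (log2 changes of -0.10 and -0.14, adjusted p = 0.0727 and 0.0671). RPA2 (ENSG00000117748, chromosome 1, 27891524 to 27914746, minus strand), a subunit of the single-strand binding protein RPA, had the largest rise of all 46 genes with WESF. It went from 51.1, 51.9 and 49.5 CPM to 61.5, 68.1 and 68.3 CPM (0.37, SE 0.05, adjusted p = 5.41e-06), with no overlap between the groups. With EESF it went from 55.2, 52.2 and 52.5 CPM to 59.2, 60.0 and 62.2 CPM (0.18, SE 0.05, adjusted p = 0.0112), a call lost without replicate 2 of vehicle B (adjusted p = 0.0702) or replicate 3 of high-dose EESF (0.0514). Its partners RPA1 and RPA3 were not called, with changes of 0.03 and -0.07 with WESF and 0.01 and -0.14 with EESF.

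For deoxynucleotide supply, the thymidylate synthase gene TYMS fell strongly and RRM2 weakly under both extracts, while RRM1 was not called. TYMS, which makes dTMP, measured 80.8, 78.5 and 76.0 CPM in vehicle A and 41.9, 43.9 and 42.1 CPM with high-dose WESF, a 1.84-fold fall (log2 -0.88, SE 0.05, edgeR adjusted p = 5.28e-11). With EESF it went from 84.8, 80.3 and 78.9 CPM to 49.0, 50.1 and 49.1 CPM, a 1.65-fold fall (-0.72, SE 0.05, adjusted p = 3.75e-07). The treated and vehicle libraries were far apart in both batches. RRM2, the regulatory subunit of ribonucleotide reductase, fell by 0.20 with WESF (adjusted p = 0.000351) and under EESF by 0.28 (adjusted p = 0.000296). RRM1, the large subunit, had -0.05 and -0.07 (adjusted p = 0.278 and 0.198).

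All 3 genes of the G1/S switch fell under both extracts. CCNE2, a cyclin E that activates CDK2, measured 22.1, 21.0 and 21.9 CPM in vehicle A and 11.9, 14.0 and 13.5 CPM with high-dose WESF. In batch B it went from 22.9, 20.3 and 21.3 CPM to 11.8, 11.6 and 10.6 CPM. CCNE2 fell by 0.73 with WESF (SE 0.07, edgeR adjusted p = 9.99e-08) and by 0.93 with EESF (SE 0.08, adjusted p = 9.49e-07). The latter was the largest fitted fall of the 46 genes with EESF, but it lay within its SE of the 0.92 of POLA1 (SE 0.06). CCNE1, the other cyclin E (chromosome 19, 29811991 to 29824312, plus strand), went from 19.9, 20.2 and 18.8 CPM to 13.7, 13.1 and 12.5 CPM with WESF, a fall of 0.58 (adjusted p = 7.44e-07). With EESF it fell by 0.26 (adjusted p = 0.0128), a call lost without replicate 1 of vehicle B (adjusted p = 0.0586). E2F1, the transcription factor that activates many of these genes, fell by 0.50 with WESF (adjusted p = 2.93e-07), from 42.8, 39.6 and 40.4 CPM to 27.8, 29.7 and 29.1 CPM. Its fall with EESF was 0.16 (SE 0.06, adjusted p = 0.034), from 41.1, 40.3 and 38.7 CPM to 34.7, 35.0 and 37.7 CPM. The groups did not overlap, but the call was lost without replicate 1 or 2 of vehicle B or of high-dose EESF (adjusted p from 0.0606 to 0.0948). It was also lost with DESeq2 (adjusted p = 0.0608), thinned counts (0.0661) and the replicate block (0.0907).

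Below the high doses, few of these genes moved. With 100 µg/mL WESF 1 of 46 rose and 0 fell, where 4.1% of 13112 genes were called in either direction, and with 20 µg/mL 0 were called, as were 0 of all 13131 genes tested. At the low dose of WESF 1 of the 46, and 470 of all genes, had an unadjusted p under 0.05 in edgeR's test, and DESeq2 also called 0 of the 46. With 62 µg/mL EESF 1 rose and 1 fell (15.4% of 12978 genes called), and with 12.4 µg/mL 1 rose (9.35% of 12892 genes called). The medians of the 46 genes were between -0.02 and 0.01 at these 4 doses, and 0 of the genes moved beyond 1.5-fold (0.275% and 0% of all genes at the medium and low dose of WESF, 0.755% and 0.271% with EESF). The called genes were CDC45, POLA1, POLD2 and CDT1. CDC45 rose by 0.23 at the medium dose of WESF (adjusted p = 0.0289), to 25.4, 24.9 and 25.2 CPM from 21.7, 21.2 and 21.6 CPM, but was not called without replicate 2 or 3 of vehicle A or any 1 library of the dose (adjusted p from 0.0625 to 0.129), nor with DESeq2 (0.0790), thinned counts (0.0501) or the replicate block (0.0916). POLA1 fell by 0.23 at the medium dose of EESF (adjusted p = 0.00826), to 52.2, 53.7 and 50.4 CPM, all below the vehicle, and was not called without replicate 2 of vehicle B or replicate 3 of the dose (adjusted p = 0.0662 and 0.0550). POLA1 was also the only gene of the 46 called at both a medium and a high dose in the same direction. POLD2 rose by 0.15 at the medium dose of EESF (adjusted p = 0.0323) and CDT1 by 0.21 at the low dose (adjusted p = 0.0404). Each was not called without any 1 library of its comparison other than replicate 1 of vehicle B, with adjusted p from 0.0616 to 0.119 for POLD2 and from 0.0776 to 0.136 for CDT1. With all 4 groups of the batch in the fit neither was called (adjusted p = 0.0687 and 0.0731), nor was POLD2 with all genes of the table (0.0709) or CDT1 with DESeq2 (0.0720). Without that replicate of vehicle B, 4 of the 46 were called with medium-dose EESF (2838 of all 13174 genes) and 5 with low-dose EESF (2679 of 12999), and without replicate 1 of vehicle A 4 were called at the medium dose of WESF (1560 of 13178).

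Set against the low dose of the same extract instead of the vehicle, the high doses gave like counts. With WESF 28 of the 46 fell and 7 rose (34.1% of 13100 genes fell and 34.1% rose), 8 of them falling beyond 1.5-fold (12.7%). With EESF 29 fell and 2 rose (28.4% of 13197 genes fell and 28.7% rose), 6 of them falling beyond 1.5-fold (8.15%). These comparisons share the high-dose libraries with those above.

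Here levels of the 46 genes were compared per length, as CPM per kb of the canonical transcript. The lowest level given with the filter, and the levels of marker genes, are CPM not divided by length. In vehicle A the highest were POLD2 with 146, PCNA with 89.9 and MCM7 with 77.6 CPM per kb, and the lowest were ORC4 with 2.00, ORC1 with 4.89 and GINS3 with 5.73. Although MCM2 to MCM7 form a ring with 1 copy of each, their levels in vehicle A ran from 11.4 CPM per kb for MCM2, 12.2 for MCM6 and 21.8 for MCM5 to 37.4 for MCM4, 42.1 for MCM3 and 77.6 for MCM7. With high-dose WESF, MCM3 stood at 15.4 CPM per kb, next to MCM5 with 15.4, and MCM7 at 65.6. With high-dose EESF, MCM3 stood at 22.9, between MCM5 with 17.1 and MCM4 with 28.5. MCM3 moved from the second highest level of the ring to below MCM4 under both extracts. Transcript isoforms were not resolved.

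**Figure D3:**
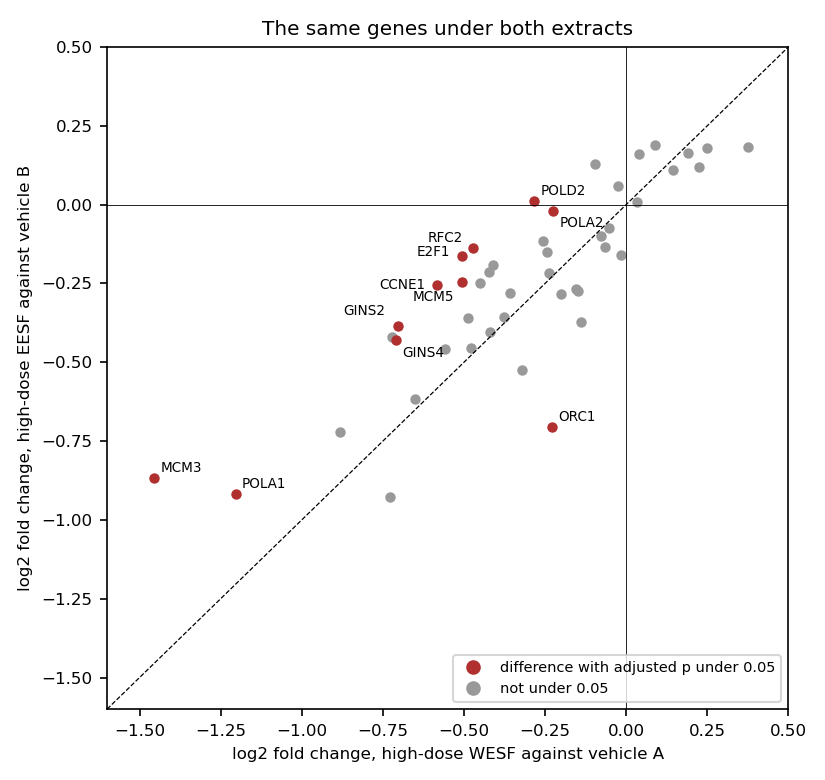
Log2 fold change with 310 µg/mL EESF (y axis) and with 500 µg/mL WESF (x axis), each relative to its vehicle, for the 46 genes; the dashed line marks equal change, and red points have an adjusted p under 0.05 for the difference in edgeR's interaction test. Of the 11 red points 10 lie above the line, where the change with WESF was the more negative, and ORC1 lies below it.

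Whether the extracts differed was tested at matched dose ranks, subtracting the log2 change under WESF from that under EESF in an interaction fit of 12 libraries. At the high dose it was called for 11 of the 46 genes, 10 with a higher and 1 with a lower value with EESF, where 12.7% of 13376 genes were higher and 13.3% lower. MCM3 had the largest difference, 0.59 (SE 0.07, edgeR adjusted p = 5.73e-05), and was the only DEG of this test among the 46 (3.88% of all genes). It fell short of 1.5-fold, leaving 0 DEGs among the 46, without replicate 1 of vehicle A, replicate 3 of vehicle B, replicate 1 or 3 of high-dose WESF, or replicate 2 or 3 of high-dose EESF. ORC1 had the opposite sign, -0.47 (SE 0.13, adjusted p = 0.012). E2F1 (0.34, adjusted p = 0.00359), POLD2 (0.29, adjusted p = 0.00618), RFC2 (0.34, adjusted p = 0.00938) and POLA1 (0.29, adjusted p = 0.00958) were also higher with EESF. For the genes that were not called, the difference was not shown to be absent. MCM4, for example, had a difference of 0.03 (SE 0.06, adjusted p = 0.774) and MCM2 had 0.02 (SE 0.09, adjusted p = 0.881). The count was 7 without replicate 3 of vehicle B or replicate 3 of high-dose EESF. At the medium dose and the low dose 0 of the 46 were called (0.203% and 0.00756% of all genes). In edgeR's test 3 of the 46 at either dose had an unadjusted p under 0.05, beside 1735 of 13276 genes at the medium and 1390 of 13221 at the low dose. With same-numbered vehicle libraries of the batches blocked, 1 was called at each of these doses, beside 606 of 13276 genes at the medium and 223 of 13221 at the low dose. Between the vehicles of the batches 0 of the 46 and 0 of 13001 genes were called, while 1 of the 46 and 371 of all had an unadjusted p under 0.05, with log2 differences of the 46 from -0.10 to 0.14. Same-numbered vehicle libraries deviated together, and with the replicate number as a block 1 of the 46 and 478 of all genes were called, so the vehicles were not shown to be alike.

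Genes around the replication machinery were described from further lists. Of 32 regulators of the G1/S transition, 31 were tested (CCND2 was not): 13 rose and 11 fell with WESF, and 9 rose and 11 fell with EESF. Over all genes tested, 34.3% rose and 34.6% fell with WESF, and 29.3% rose and 28.7% fell with EESF. The counts of this list and of the next 3 are to be read beside those shares, and nothing particular to the lists is drawn from them. E2F2, an activating E2F like E2F1, fell by 1.35 with WESF (SE 0.15, edgeR adjusted p = 4.44e-07) and under EESF by 1.18 (SE 0.15, adjusted p = 2.51e-05), from 5.40 and 5.32 CPM with the vehicles to 2.11 and 2.34 CPM. CDKN2D, an inhibitor of CDK4 and CDK6, rose by 1.32 and 0.75, and E2F7, a repressor of E2F targets, rose by 0.98 with WESF, from 101 ± 8.1 to 199 ± 5.8 CPM (SD, n = 3). RBL1, the retinoblastoma relative p107, fell by 1.09 with EESF. Of 24 genes of origin firing and checkpoint control, 5 rose and 6 fell with WESF, and 4 rose and 7 fell with EESF. CDC7, the kinase that fires origins, fell by 0.75 and 0.44, DONSON, a helicase loading factor, rose by 0.69 and 0.56, the fork protein TIMELESS fell by 0.59 with WESF and its partner CLSPN by 0.44 with EESF.

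Of 26 further replication and chromatin assembly enzymes, 13 fell and 9 rose with WESF, and 9 fell and 6 rose with EESF. UHRF1, which guides maintenance methylation behind the fork, fell by 1.05 and 0.83, and with WESF RNASEH2B, a subunit of ribonuclease H2, fell by 0.72 and CHAF1A, a histone chaperone subunit, by 0.71. With EESF the clamp-associated factor PCLAF fell by 0.59, and CHTF18, of an alternative clamp loader, rose by 0.75. Of 27 genes of nucleotide supply, 9 fell and 9 rose with WESF, and 7 fell and 11 rose with EESF. SAMHD1, which degrades dNTPs, fell by 0.76 and 0.62, SHMT1 of folate metabolism fell by 0.69 with WESF, and DHODH of pyrimidine synthesis rose by 0.48 with EESF.

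The 20 mitosis genes moved the other way for the most part. With WESF 14 rose and 1 fell (median 0.26, beside 34.3% and 34.6% of all genes), and with EESF 11 rose and 4 fell (median 0.20, beside 29.3% and 28.7%). AURKB, the kinase of the chromosomal passenger complex, rose by 0.71 with WESF (SE 0.05, edgeR adjusted p = 2.64e-09) and under EESF by 0.76 (SE 0.07, adjusted p = 2.14e-06), from 41.8 ± 1.7 to 68.5 ± 3.5 CPM and from 40.0 ± 2.2 to 67.7 ± 5.2 CPM (SD, n = 3). UBE2C, which works with the anaphase-promoting complex, rose by 0.76 and 0.62, the checkpoint kinase BUB1 rose by 0.83 with WESF, and the mitotic cyclin CCNB2 by 0.51 with EESF. The genes that fell were FOXM1, a transcription factor of mitotic genes, under both extracts (by 0.26 and 0.18), and with EESF also MKI67 (by 0.43), CENPF (0.35) and KIF11 (0.19), all chosen for naming after their values were seen. The difference between extracts was called for 8 of the 20, all lower with EESF (13.3% of all genes). At the low and medium doses 0 of the 20 were called with WESF, where 4.1% (medium) and 0% (low) of all genes were called. With EESF 1 rose and 2 fell at each of these doses, where 15.4% (medium) and 9.35% (low) of all genes were called. The summed level of the 20 mitosis genes was 2745 to 2839 CPM in vehicle B and 2865 to 2986 CPM with high-dose EESF, but 2653 to 2717 CPM at the medium and 2640.2 to 2709.7 CPM at the low dose, both below the vehicle without overlap. In batch A it was 2753 to 2837 CPM with the vehicle and 3216 to 3299 CPM with high-dose WESF, and the medium- and low-dose groups overlapped the vehicle.

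**Figure D4:**
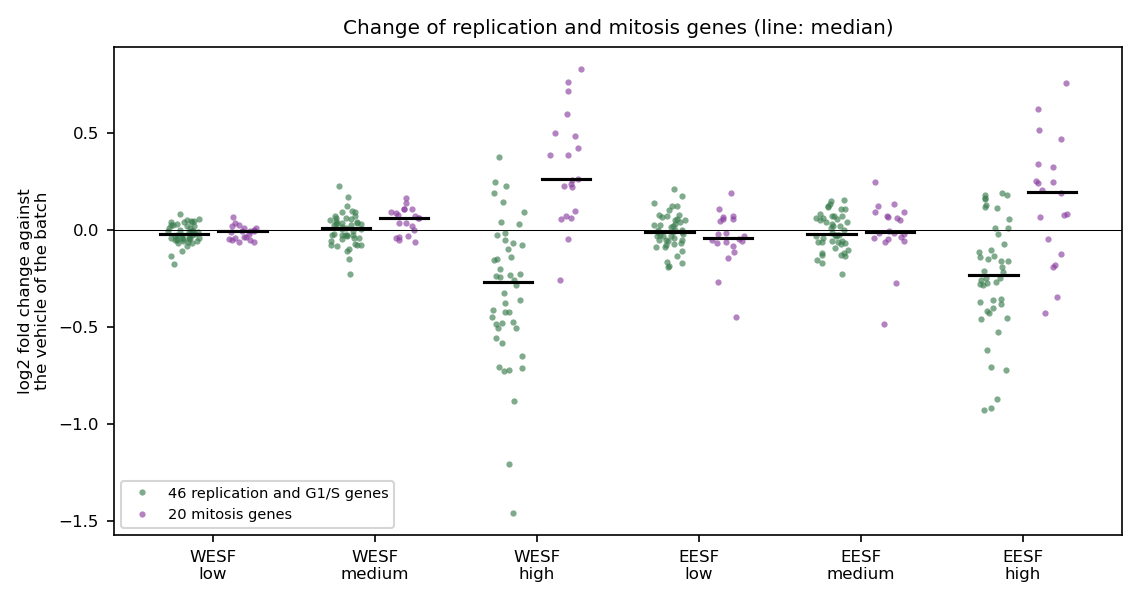
Log2 fold change against the vehicle of the batch (y axis) of the 46 replication and G1/S genes (green) and of 20 mitosis genes (purple) at each dose (x axis); points are genes and black lines medians. At the high doses the medians lie on opposite sides of 0, at -0.27 and 0.26 for WESF and -0.23 and 0.20 for EESF, and at the other doses all lie between -0.04 and 0.06.

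Markers of the cell line and of other cell types also moved at the high doses. Of 12 astrocyte and glioma markers, 6 were tested and 4 of them fell under each extract, beside 34.6% of all genes with WESF and 28.7% with EESF. SLC1A3, a glutamate transporter, fell by 1.62 with WESF and 1.39 with EESF, SOX9 by 0.69 and 0.82, NES by 1.21 and 0.45 and CD44 by 0.72 and 0.48, while VIM, the most abundant, had -0.01 and 0.10 and GLUL 0.08 and -0.01, which were not called. The summed level of the 12 markers was 7759 to 7903 CPM in vehicle A and 6549 to 6796 with high-dose WESF, and 7896 to 8072 in vehicle B and 7331 to 7575 with high-dose EESF. Of 15 markers of other cell types, AIF1 and MOG were at 0 in these 4 groups, and CDH1, CDH5, EPCAM, KRT5 and VWF were at or under a group mean of 0.136 CPM. CD68, the most abundant, rose by 0.29 and 0.43 from 181 and 201 CPM, and MBP rose by 0.89 and 0.55. PTPRC fell from 10.2 and 9.81 CPM, with log2 fold changes of -2.26 and -2.38, and SNAP25 and SYT1, from 28.1 and 25.3 CPM in vehicle A, fell under both extracts. RBFOX3 rose by 2.60 with WESF from 0.112 to 0.709 CPM, and PECAM1, near 1 CPM, fell by 0.76 with WESF. The summed level of the 15 was 246 to 260 CPM in vehicle A and 245 to 276 with high-dose WESF, and 262 to 286 in vehicle B and 302 to 313 with high-dose EESF. The part of these markers in the changes of the replication genes was not tested.

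Several members share reads with other genes, and their levels are less certain. Expected counts of ORC4, ORC6, RFC5, TYMS, CCNE2, GINS3, GINS4 and MCM7 were not whole numbers in at least 22 of 24 libraries, so reads had been divided with another gene. TYMS overlaps ENOSF1, MCM7 overlaps AP4M1, RFC5 overlaps WSB2 and CCNE2 overlaps INTS8 and NDUFAF6 on the opposite strand, and whether the counting used strand is not given in the sources used here. ORC4, GINS1, GINS2, RFC4, RPA1 and RPA3 also overlap coding genes on the opposite strand. FEN1 overlaps FADS2 on the same strand, and POLA2, POLD1 and PRIM1 overlap other annotated coding genes on theirs. Counts were not whole in 10 libraries for FEN1, 5 for PRIM1 and 0 for POLA2 and POLD1. PCNA, RPA2 and RRM2 each have 3 named pseudogenes and TYMS has 2.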

How the data were processed

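RNA was sequenced from 24 libraries of SW1783 cells, 3 per group, from a directional library kit. The authors trimmed reads with Trim Galore 0.6.6 after FastQC 0.11.9, aligned them with STAR 2.7.9a to GRCh38 (written as hg19 in the methods beside it) and quantified genes with RSEM 1.3.3 on an Ensembl 84 annotation. The deposited values are expected counts, not normalized, of which 10.9% are not whole (20.5% for the members). RSEM divides ambiguous reads between genes.

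Here expected counts were rounded, protein-coding genes of GENCODE 44 that passed filterByExpr were kept, and edgeR 4.0.16 (TMM, quasi-likelihood test, 2-sided, R 4.3.3) was fitted to the libraries compared. DESeq2 1.42.0, which the study used in its own version, was an alternative. Over all expressed genes together, the spread between replicate libraries exceeded counting noise (chi-square per degree of freedom 2.01 to 15.1). This was not worked out for single members, and some of their calls were lost when counts were thinned.

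Members and lists were chosen with earlier results of these data known. Named with values were, per role, the largest rise and fall, the whole deoxynucleotide and G1/S roles, called members against their role's sign, members called at lower doses and for the difference between extracts, and up to 3 genes per further list (some listed genes are not reported here); the other members were added so that every member is accounted for. Promoters were shown for the helicase and polymerase members with the largest falls and for another member of each role, chosen after their values were seen.

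The alternatives were DESeq2, its size factors, library totals only, no filter, all genes, thinning to 18727769 counts, replicate blocks, all 4 groups of a batch, and leaving out each library. Same-numbered libraries of a dose and its vehicle did not deviate together (correlations -0.26 to 0.12 over genes), but same-numbered vehicle libraries of the batches did (0.36, 0.16 and 0.26), so a block for the vehicles alone was added after the data were seen.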

Additional observations from a re-analysis of the deposited data

Results flagged for a closer look

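At the high doses, the log2 change under EESF less that under WESF passed edgeR's interaction test (adjusted p under 0.05) for 11 of the 46 genes, and these are listed because their effects differed between the extracts. It was positive for MCM3 (0.59), E2F1 (0.34), RFC2 (0.34), CCNE1 (0.33), GINS2 (0.32), POLD2 (0.29), POLA1 (0.29), GINS4 (0.28), MCM5 (0.26) and POLA2 (0.21), so that the level was less reduced with EESF, and negative for ORC1 (-0.47). MCM3, POLA1, GINS2, GINS4, CCNE1, MCM5, E2F1 and ORC1 fell under both extracts and differed in size, while POLD2, POLA2 and RFC2 fell with WESF and were not called with EESF. The calls of ORC1 with WESF, and of E2F1 and CCNE1 with EESF, were lost under alternatives given above. Adjusted p for the genes not given above was 0.011 for GINS4, 0.023 for CCNE1, 0.0295 for GINS2, 0.0395 for POLA2 and 0.0428 for MCM5. Since each extract has a batch label of its own and its own doses, extract, dose and batch cannot be told apart here.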

How the results depend on the processing

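The counts of members called at the high doses against the vehicle or the low dose stayed within 1.5 times their values under every alternative run, taking both directions together. The 3 that rose with high-dose EESF were 1 with the replicate block and 5 with thinned counts. Leaving out 1 library at a time gave 33 to 38 called members for WESF (8 to 9 beyond 1.5-fold) and 25 to 31 for EESF (6 to 6), 31 to 38 (8 to 9) and 27 to 32 (5 to 6) for the high against the low dose of WESF and EESF, 7 to 14 (0 to 1) for the difference at the high dose, 0 to 4 at the medium dose of WESF, 0 to 4 at the medium and 0 to 5 at the low dose of EESF. At the medium dose of WESF (1 called) DESeq2, thinned counts and the replicate block gave 0 and all 4 groups of the batch gave 2. At the medium dose of EESF (2 called) all genes of the table and all 4 groups gave 1, and at the low dose (1 called) DESeq2 and all 4 groups gave 0 and library totals only gave 3. The single difference beyond 1.5-fold, MCM3, was lost (0 left) with DESeq2, its size factors, all genes and thinned counts. The replicate block gave 24 called members with high-dose EESF (1 rose, 23 fell), and 1 between the vehicles (0 without the block; 478 of all genes, 0 without it); the block for the vehicles alone, added after the data were seen, gave 13 differences at the high dose (4163 of all genes) and 1 each at the medium (606) and low doses (223), against 0 members without it at the medium and low doses. With the replicate block, called genes over all tested also went from 537 to 185 at the medium dose of WESF. For the difference between extracts they went from 3481 to 2245 at the high dose. At the medium dose they went from 27 to 0, and at the low dose from 1 to 11. Among the genes whose single values were recomputed, signs turned for log2 changes that were not called, over the fits that left out 1 library. CDC45 with WESF ranged from -0.039 (without replicate 3 of high-dose WESF) to 0.077. POLD1 with WESF ranged from -0.065 to 0.038 (without replicate 1 of vehicle A), and was 0.022 without replicate 3 of high-dose WESF. POLD1 with EESF ranged from -0.016 (without replicate 2 of high-dose EESF) to 0.093. Other members with changes near 0, such as RPA1 and RFC1 with WESF, were not in this set. Among the recomputed values of named genes, 1174 kept their direction and side of the threshold, 59 lost and 8 gained the call, and 4 turned. The cause of these shifts was not tested.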
